A study of Homo sapiens with 2 samples.

Results

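The GADD45 genes GADD45A, GADD45B and GADD45G, and CDKN1A, MDM2, BBC3, PMAIP1 and BTG2, which are linked to the tumour suppressor p53, are 8 stress genes. The positions of NRF1 around them were examined in cells whose proteasome was inhibited. A peak of NRF1 was assigned to a gene when its centre lay within 20 kb of any annotated transcription start site (TSS) of that gene, or when the annotation of the study listed the peak for it, which added 0 peaks. By this rule, 5 of the 8 genes had a peak, with 6 of the 5683 peaks between them. GADD45A, GADD45B, GADD45G and BBC3 had 1 peak each, PMAIP1 had 2, and CDKN1A, MDM2 and BTG2 had none. Among all 20163 protein-coding genes, 3766 had a peak within the same window, which is 18.7% (95% Wilson interval 18.1 to 19.2%, counting error only), and 3.10% had 2 or more, as PMAIP1 did. The genes were selected with earlier results of these data known, so that 5 of 8 is a description of the selected genes and carries no test.

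NRF1 (NFE2L1) was immunoprecipitated from HCT116, a line of human colorectal carcinoma cells, after 16 h in 1 µM MG132, an inhibitor of the proteasome, and the DNA was sequenced as 1 ChIP library. An input library from cells given the same treatment was not analysed here, and no untreated cells are among the samples, so that no value below is a response to MG132. The deposited list gave the position and score of each peak, the score being the negative log10 of the MACS p-value multiplied by 10. The read number behind each peak was unknown, and no value has a replicate error.

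NRF1 is a CNC-type basic leucine zipper factor that is normally degraded by the proteasome, accumulates when the proteasome is inhibited, and binds antioxidant response elements (AREs) as a dimer with a small MAF protein. p53 is stabilised by stress and binds its own response element, made of a pair of palindromic half-sites. The products of the 8 genes act at different points of the response to stress: the GADD45 proteins bind cell cycle regulators and MAP kinase kinase kinases, CDKN1A (p21) inhibits cyclin-dependent kinases, BTG2 is an antiproliferative cofactor of mRNA deadenylation, BBC3 (PUMA) and PMAIP1 (NOXA) are BH3-only proteins that antagonise survival members of the BCL2 family, and MDM2 is the ubiquitin ligase that targets p53 to the proteasome.

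An ARE was searched on both strands as TGACNNNGC or TGAGNNNGC. Its longer form was TGACTCAGC or TGAGTCAGC, whose 7 leading bases are the AP-1 site. Each of the 6 peaks held exactly 1 longer ARE, a form present in 61.3% of all peaks, and the ARE in either form was present in 87.4%. The sequences are given to show how the AREs of the 6 peaks and their flanks differ. They are written 5′ to 3′ from hg19, on the plus strand except for BBC3, with the longer ARE in capitals and flanks of 25 bases, or of 10 bases in GADD45G, where the site lies in the 3′ UTR. For GADD45A, the stretch is extended to an upstream match to the p53 response element, which is also in capitals. For MDM2, which had no peak, the stretch holds the longer ARE of intron 1 and a downstream match to the p53 element, both in capitals.
GADD45A, chr1:68152448-68152525: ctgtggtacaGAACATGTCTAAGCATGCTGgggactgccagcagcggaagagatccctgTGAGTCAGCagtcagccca
GADD45B, chr19:2469565-2469623: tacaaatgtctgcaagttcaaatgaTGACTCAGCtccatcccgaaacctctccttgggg
GADD45G, chr9:92221282-92221310: cgggcaggcgTGACTCAGCagcctgcgct
BBC3, chr19:47729445-47729503: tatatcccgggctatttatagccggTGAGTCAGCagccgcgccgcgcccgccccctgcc
PMAIP1, proximal peak, chr18:57584913-57584971: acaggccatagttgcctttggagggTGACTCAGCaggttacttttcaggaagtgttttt
PMAIP1, distal peak, chr18:57585845-57585903: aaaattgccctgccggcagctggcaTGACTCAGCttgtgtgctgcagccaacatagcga
MDM2, no peak, chr12:69202669-69202732: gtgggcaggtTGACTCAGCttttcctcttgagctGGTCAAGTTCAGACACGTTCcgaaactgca

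All 3 GADD45 genes had a peak, each at a different place relative to the gene. The peak of GADD45A (ENSG00000116717, chr1:68150884-68154017, plus strand) spanned chr1:68152327-68152823 within intron 3, with its centre 1216 bp downstream of the nearest TSS and 1691 bp downstream of the canonical TSS. Its score was 59.50, rank 4741 of 5683, and only 16.5% of peaks scored lower. GADD45A therefore had the weakest of the 6 peaks, close to the lowest score in the list, 50.00. The ARE lay 64 bp upstream of the centre of the peak, which was the farthest of the 6.

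The peak of GADD45B (ENSG00000099860, chr19:2476120-2478257, plus strand) spanned chr19:2469341-2469876 upstream of the gene, with its centre 6512 bp before the nearest TSS. Its score was 199.78, rank 915, with 83.9% of peaks lower. No TSS of another gene lay nearer to this peak than that of GADD45B. The peak of GADD45G (ENSG00000130222, chr9:92219927-92221470, plus strand) spanned chr9:92220970-92221566, from coding exon 4 across the 3′ end of the gene, with its centre in the 3′ UTR 1261 bp downstream of the nearest TSS. Its score was 168.61, rank 1212, with 78.7% of peaks lower. Thus the GADD45 paralogs, which encode closely related proteins, carried peaks in an intron, upstream and over the 3′ UTR, and the scores of GADD45B and GADD45G lay above the upper quartile of all peaks (152.13) while that of GADD45A lay below the lower quartile (65.36).

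**Figure D1:**
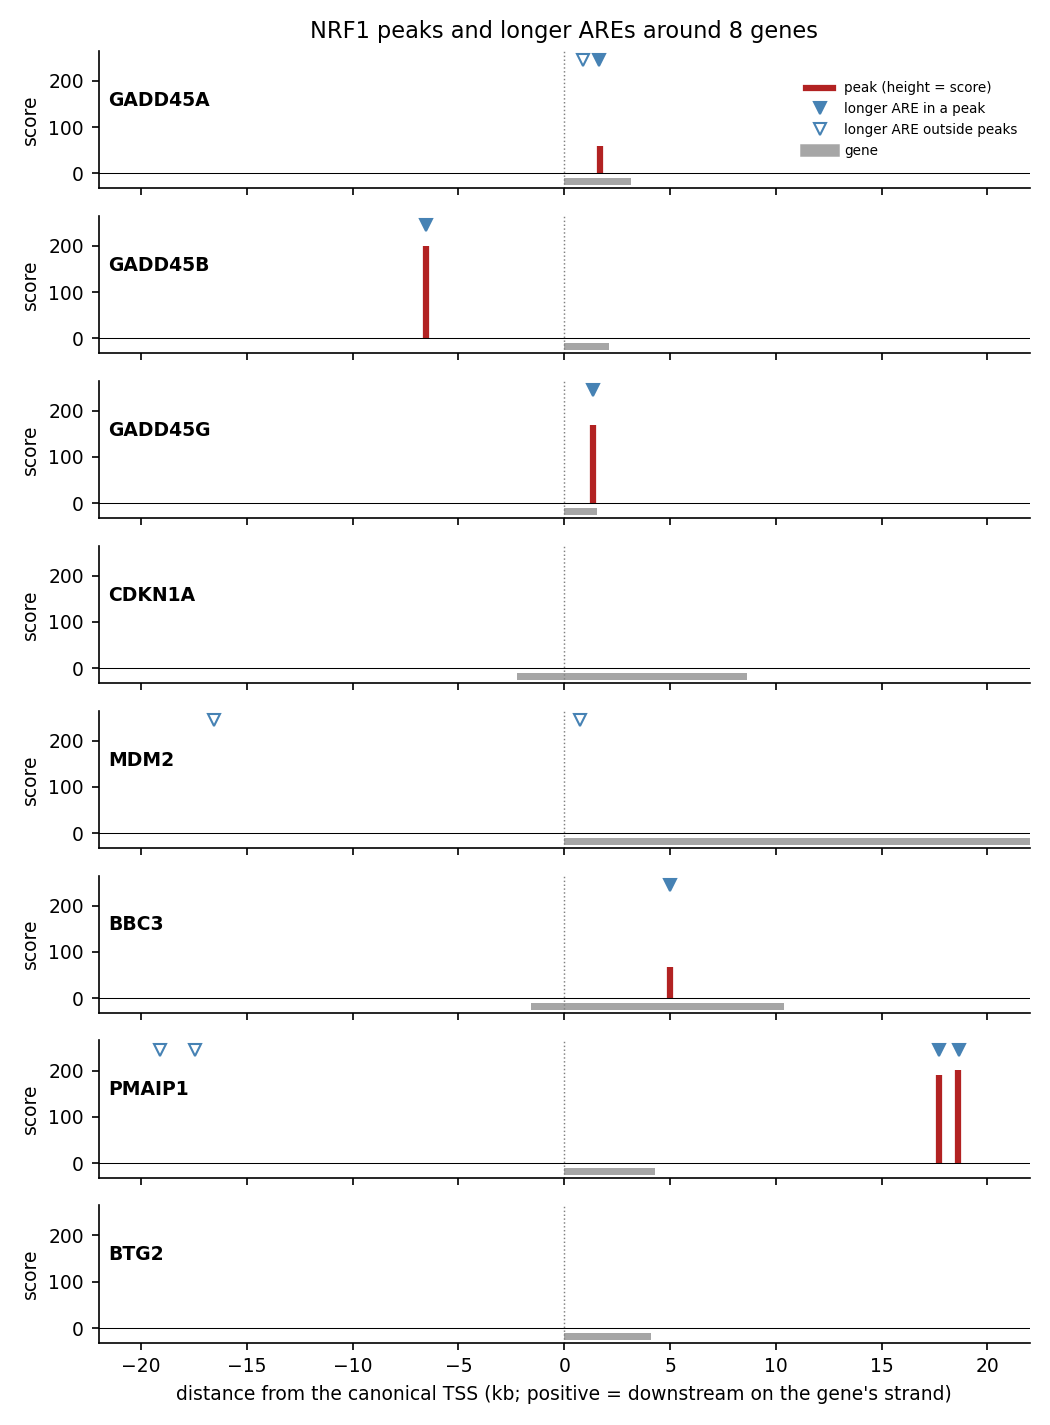
NRF1 peaks (red bars, height = score) and longer AREs (triangles, filled when inside a peak) around the canonical TSS of each gene, in kb on the strand of the gene, with the gene as a grey bar. Peaks stand at GADD45A, GADD45B, GADD45G, BBC3 and PMAIP1, and the panels of CDKN1A, MDM2 and BTG2 hold none.

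Both genes for BH3-only proteins had a peak, but with different scores and distances. The peak of BBC3 (ENSG00000105327, chr19:47724079-47736023, minus strand) spanned chr19:47729235-47729638 within intron 3, 1010 bp downstream of the nearest TSS and 5020 bp downstream of the canonical TSS. Its score was 67.30, rank 4136, with 27.2% of peaks lower. The TSS nearest to this peak was that of the microRNA gene MIR3191, at 763 bp, and among protein-coding genes it was that of BBC3. At 404 bp the BBC3 peak was the narrowest of the 6, and with 72.5% G and C bases it was the most GC-rich, against a median of 45.3% over all peaks.

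PMAIP1 (ENSG00000141682, chr18:57567228-57571537, plus strand) had a pair of peaks downstream of the gene, chr18:57584620-57585275 with a score of 190.51 (rank 980, 82.8% of peaks lower) and chr18:57585603-57586062 with a score of 201.19 (rank 900, 84.2% lower). Their centres lay 17679 and 18564 bp downstream of the nearest TSS of PMAIP1, 885 bp from each other, with 327 bp between their facing edges. The proximal peak also held shorter AREs at chr18:57584775-57584783 (TGAGAGGGC) and chr18:57585142-57585150 (TGAGATTGC, minus strand), whereas each of the other 5 peaks held only its longer ARE. Although PMAIP1 was the nearest protein-coding gene of both peaks, the nearest TSS of any kind was that of a processed pseudogene, at 11511 and 10626 bp. These were also the peaks nearest to the limit of the rule: the most distant peak assigned lay at 18564 bp, and the nearest peak of any of the 8 genes beyond the limit lay at 200543 bp, from BTG2.

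The 3 genes without a peak were CDKN1A and BTG2, whose products arrest the cell cycle, and MDM2, whose product is in negative feedback with p53. The peak nearest to CDKN1A (ENSG00000124762, chr6:36644237-36655114) was chr6:36410527-36410998, 233475 bp upstream, with a score of 61.38. Its centre lay 15 bp from a TSS of KCTD20. The peak nearest to BTG2 (ENSG00000159388, chr1:203274619-203278730) was chr1:203073756-203074397, 200543 bp upstream, with a score of 154.87, and its nearest protein-coding gene was ADORA1 at 14294 bp. The peak nearest to MDM2 (ENSG00000135679, chr12:69201957-69239324) was chr12:68375008-68375474, 826716 bp upstream, with a score of 90.30, and its nearest protein-coding gene was IFNG at 178279 bp.

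The median protein-coding gene had its nearest peak at 105 kb (quartiles 32.4 and 271 kb). A nearer peak than that of the gene was found for 4.77% of protein-coding genes at BBC3, 5.09% at GADD45A, 5.18% at GADD45G, 10.1% at GADD45B and 17.5% at PMAIP1. The corresponding shares were 67.0% for BTG2, 71.2% for CDKN1A and 93.8% for MDM2. Thus the 8 genes fell into a group with a nearer peak than most genes and a group with a more distant one, and MDM2 was among the genes farthest from any peak. Only the list of peaks was used, and its lowest score was 50.00. Weaker binding below that threshold at these genes was therefore not detectable, and the depth of the library was unknown.

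**Figure D2:**
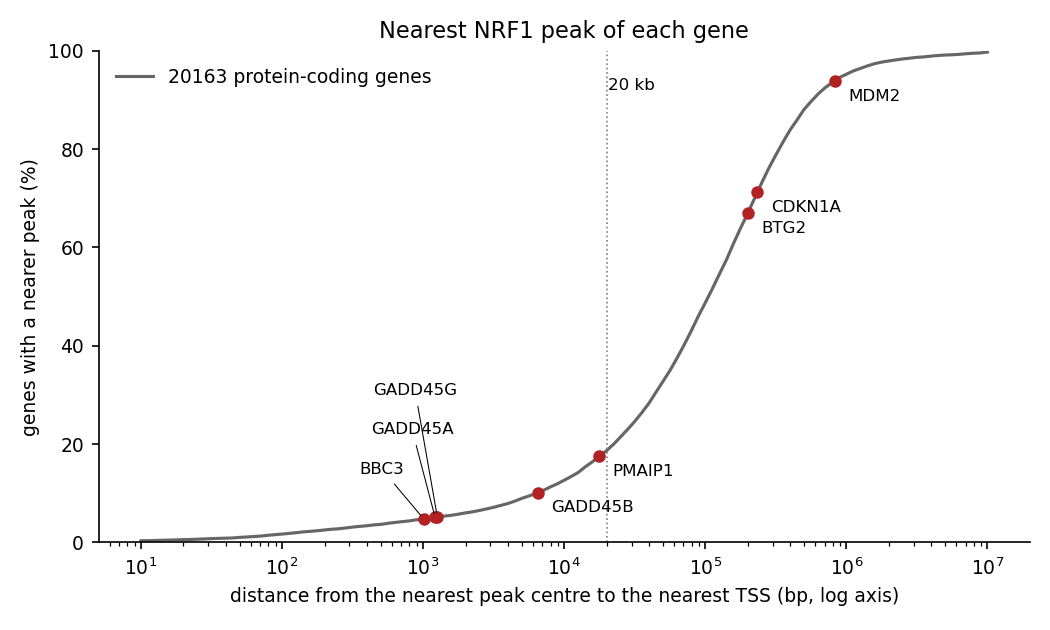
Share of the 20163 protein-coding genes with a nearer peak (%, y axis) against the distance from a TSS to the nearest peak centre (bp, log x axis), with the 8 genes as red points and the 20 kb limit dotted. PMAIP1 is the last gene inside the limit at 17679 bp, and BTG2, CDKN1A and MDM2 follow at 200543, 233475 and 826716 bp.

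The number of longer AREs around the genes differed. Within 20 kb of a TSS there were 2 at GADD45A, 1 at GADD45B, 1 at GADD45G, 1 at BBC3, 4 at PMAIP1, 2 at MDM2, and 0 at CDKN1A and BTG2. Of all protein-coding genes, 67.5% had at least 1 longer ARE in this window, as did 6 of the 8. Among genes with such a site 23.9% had a peak, and among those without it 7.73% did. Of the 6 genes with a site 5 had a peak, and of the 2 genes without a site 0 had a peak. In total, 6 of the 11 longer AREs around the 8 genes lay in a peak, beside 9.10% of the 21021 sites around all protein-coding genes. Because the genes were selected with earlier results of these data known, the counts in this paragraph describe them and carry no test.

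The 5 longer AREs outside peaks belonged to 3 genes. GADD45A held the sequence TGAGTCAGC both in intron 3 under the peak and in coding exon 2 at chr1:68151755-68151763, 564 bp from the edge of the peak. PMAIP1 had sites 19111 and 17452 bp upstream of its TSS, at chr18:57548113-57548121 and chr18:57549772-57549780, in addition to the pair under its downstream peaks. MDM2 had TGACTCAGC 16542 bp upstream, at chr12:69185411-69185419, and in intron 1 at chr12:69202679-69202687, 726 bp downstream of the canonical TSS. The site in intron 1 of MDM2 is identical in all 9 bases to the AREs under the peaks of GADD45B, GADD45G and PMAIP1, and it was 827205 bp from the nearest peak.

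The 6 peaks scored between 59.50 and 201.19 with a median of 179.56, against a median of 91.86 over all peaks (quartiles 65.36 and 152.13). When each of the 3766 protein-coding genes with a peak was represented by its best score, the median was 102.02 (quartiles 68.5 and 180.9). GADD45B and PMAIP1 were above the upper quartile of these genes, GADD45G was between the median and the upper quartile, and GADD45A and BBC3 were below the lower quartile. The widths of the 6 peaks ran from 404 to 656 bp with a median of 516.5 bp, near the median of 501 bp over all peaks.

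An ARE was present in 6 of 6 peaks of the genes and in 87.4% of the 5673 peaks searched, and the longer form in 6 of 6 and in 61.3%. The form TGACTCAGC was under the peaks of GADD45B and GADD45G and both peaks of PMAIP1. GADD45A and BBC3 had TGAGTCAGC, which differs from it by the substitution C4G, counted from 1 at the T of TGA. The 4 peaks with TGACTCAGC scored 168.61, 190.51, 199.78 and 201.19, and the 2 peaks with TGAGTCAGC scored 59.50 and 67.30, so that the scores of the forms did not overlap among these genes. Over all peaks, the 2818 with TGACTCAGC had a median score of 108.91 (quartiles 72.3 and 181.2), and the 660 whose longer AREs all had G as base 4 had a median of 90.01 (quartiles 67.0 and 144.7), so that the forms overlapped widely. Peaks with the shorter ARE alone had a median of 83.71, and those without an ARE 71.76.

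**Figure D3:**
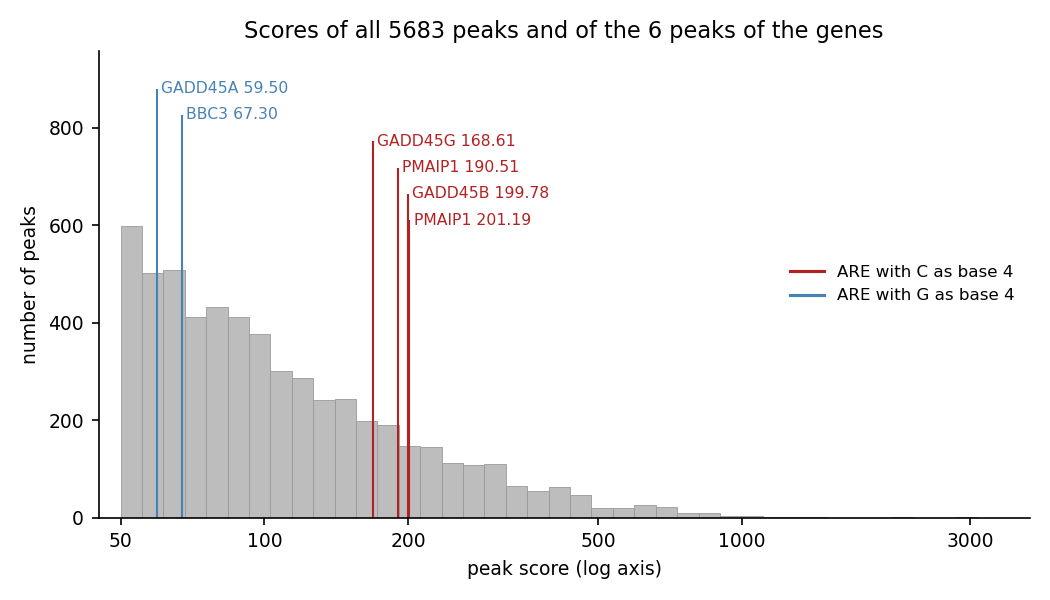
Histogram of the scores of all 5683 peaks (log x axis, number of peaks on the y axis) with the 6 peaks of the genes as vertical lines, whose height has no meaning. Peaks with TGACTCAGC (red) stand between 168.61 and 201.19, and those with TGAGTCAGC (blue) at 59.50 and 67.30.

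The AREs lay 5, 14, 28, 38, 42 and 64 bp from the centre of their peak, with a median of 33 bp, and the 3478 peaks with a longer ARE had a median of 29.5 bp (quartiles 14 and 52 bp). The bases next to the ARE varied among the genes. The base before it was A at GADD45B and the distal peak of PMAIP1 and G at the other 4, whereas it was A at 55.0% of the longer AREs in peaks around protein-coding genes and at 18.4% of those outside peaks. The base after it was A at 4 of the 6 sites and T at GADD45B and the distal peak of PMAIP1, against A at 70.2% of sites in peaks and 28.1% outside. The AREs of GADD45A, GADD45G, BBC3 and the proximal peak of PMAIP1 thus had G before and A after the 9 bases.

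The p53 response element was searched as its full consensus of a pair of half-sites with a spacer of up to 13 bp. It was present in 0 of the 6 peaks and in 0.0529% of all peaks (3 of 5673). Searches that allow up to 1 or 2 bases off the consensus were added after the data were seen. With up to 1 base off, the element was present in the peak of GADD45A alone, 1 of 6, and in 1.71% of all peaks. With up to 2 bases off, it was present in the peak of GADD45A and the distal peak of PMAIP1, 2 of 6, and in 16.8% of all peaks, so that a match of this kind was common in the list.

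In GADD45A, the element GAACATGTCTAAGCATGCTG at chr1:68152458-68152477 had no spacer and departed from the consensus in its last base (Y20G, counted from 1 at its 5′ end, where Y stands for C or T). Intron 3 of GADD45A is known for a p53 response element. The element ended 29 bp before the ARE, and both lay on the upstream side of the centre of the peak, as the printed stretch shows. Among all peaks, 87 held such an element and an ARE, with a median gap of 72 bp, and 62 held one with a longer ARE, with a median gap of 95.5 bp. In 10 of these 62 the gap was at most 29 bp, the gap in GADD45A.

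With up to 2 bases off, matches also lay next to longer AREs of PMAIP1 and MDM2. Under the distal peak of PMAIP1, the sequence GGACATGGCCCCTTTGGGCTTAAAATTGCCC at chr18:57585824-57585854, with a spacer of 11 bp and the substitutions Y8G and C14A, counted without the spacer, ended 15 bp before the longer ARE. At MDM2, which had no peak, the sequence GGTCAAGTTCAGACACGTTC at chr12:69202703-69202722, which departs from the consensus in 2 bases (R3T and W16C, where R stands for A or G and W for A or T), began 15 bp after the longer ARE of intron 1. Further matches of this kind within 300 bp of a longer ARE lay 39 bp from that of the GADD45A peak, sharing a half-site with the element above, and 71 and 250 bp from the upstream sites of PMAIP1 and MDM2, which had no peak. Intron 1 of MDM2 holds its p53-responsive promoter. The promoter sequences of RefSeq (GRCh38.p14), which reach from 250 bases before to 50 bases after each start, hold the longer ARE in 0.977% of 35116 entries. In the 10 entries matched by symbol to 7 of the 8 genes, it was found in 2, both of MDM2 and both containing the same 59 bases around the intron 1 site of hg19. Only the shorter form was found in 1 further entry, that of GADD45G, and the shorter or longer ARE in 29.1% of all entries. A match of letters does not show that a factor binds there.

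**Figure D4:**
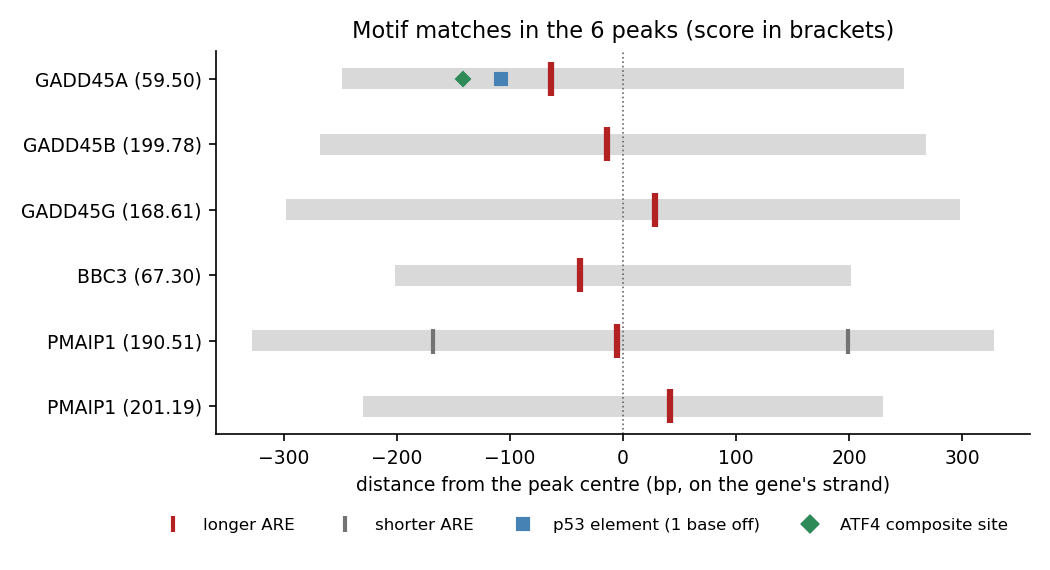
Position of motif matches in the 6 peaks (bp from the peak centre on the strand of the gene), with each peak as a grey bar. The longer ARE (red) lies within 64 bp of the centre in every peak, and only the GADD45A peak holds the p53 element with 1 base off (blue) and the ATF4 composite site (green).

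The AP-1 site, TGACTCA or TGAGTCA, was present in 6 of 6 peaks and in 75.0% of all peaks, and in the 6 peaks it was part of the longer ARE. The composite site TGATGNAAN, to which ATF4 binds with C/EBP factors in the integrated stress response, was present in 1 of 6 peaks and in 9.54% of all peaks. It was the sequence TGATGAAAC on the minus strand of GADD45A at chr1:68152429-68152437, 142 bp upstream of the centre of the peak. The GADD45A peak, the weakest of the 6, thus held matches for ATF4, p53 and the ARE within its upstream part.

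Further genes were examined with a list of 33 textbook p53 targets, of which 6 (18.2%) had a peak within 20 kb, close to the 18.7% of all protein-coding genes. By role, the counts were 4 of 5 for arrest and cell cycle, 1 of 14 for apoptosis, 0 of 4 for DNA repair, 1 of 8 for metabolism, redox and autophagy, and 0 of 2 for feedback. The list was chosen with earlier results of these data known and its classes are small, so that a difference between roles cannot be read from these counts. Within the arrest and cell cycle class, GDF15, a stress-induced cytokine, had 2 peaks, the best with a score of 197.56 at 1995 bp upstream. The other peak of GDF15 was nearer, 157 bp from a TSS. PLK3, a stress-responsive kinase, had 2 peaks. The best scored 163.81 at 3048 bp downstream, nearer to DYNLT4 (318 bp), and the other lay 214 bp from a TSS of PLK3. PLK2, a related kinase, had 1 peak of 74.28 at 6860 bp upstream. SFN, the 14-3-3 sigma protein of the G2 checkpoint, had 2 peaks. The best scored 458.30 at 13763 bp upstream, nearer to ZDHHC18 (976 bp), and the other lay 9882 bp from a TSS of SFN. For apoptosis, BAX, the pore-forming member of the BCL2 family, had 2 peaks. The best scored 682.94 at 8140 bp downstream and was nearer to FTL, the ferritin light chain gene (1316 bp). SESN2, an inhibitor of mTORC1 signalling, had a peak of 85.51 at 10702 bp upstream. None of these best peaks held a p53 element with up to 1 base off.

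The families around the 8 genes gave 1 of 5 p53 regulators, 2 of 6 further CDK inhibitors, 0 of 5 further BTG/TOB genes, 2 of 6 further BH3-only genes and 1 of 5 GADD45 partners with a peak within 20 kb. The share of all protein-coding genes was 18.7%, and families of 5 or 6 genes are too small for a comparison with it. The CDK inhibitor gene CDKN2C had a peak of 268.22 at 484 bp upstream, 6 bp from a TSS of FAF1, and CDKN1C had a peak of 141.43 at 17483 bp upstream, 118 bp from a TSS of SLC22A18. BID, which links death receptors to mitochondria, had a peak of 79.02 at 7133 bp upstream. USP7, a deubiquitinase of p53 and MDM2, had 2 peaks. The best scored 57.96 and lay in intron 11 of the gene, 4358 bp before the nearest of its TSSs, and the other lay 2969 bp from a TSS. HRK, a BH3-only gene, had a peak of 53.87 at 11513 bp upstream. USP7 and HRK were named after their values were seen. Of the 12 genes of the p53 target list and the families that had a peak, 6 (GDF15, PLK2, SESN2, USP7, BID and HRK) were the nearest protein-coding gene of their best peak. GADD45A, GADD45B, GADD45G, BBC3 and PMAIP1 were also the nearest protein-coding gene of their peaks, a trait they shared with those 6 genes. For the lists only the best peak of each gene was judged. The share among all protein-coding genes with a peak is not given here, so that no rate can be compared.

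The width of the window changed which of the 8 genes had a peak only up to 20 kb. Within 2 kb these were GADD45A, GADD45G and BBC3, 3 of 8, while 6.03% of protein-coding genes and 2 of the 33 p53 targets had a peak. Within 10 kb GADD45B was added, giving 4 of 8 beside 12.6% of protein-coding genes, and within 20 kb PMAIP1. From 20 to 100 kb the count stayed at 5, while that of protein-coding genes rose from 18.7% to 48.7% and that of the p53 targets from 6 to 16 of 33 (48.5%). CDKN1A, MDM2 and BTG2 had no peak even within 100 kb.

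**Figure D5:**
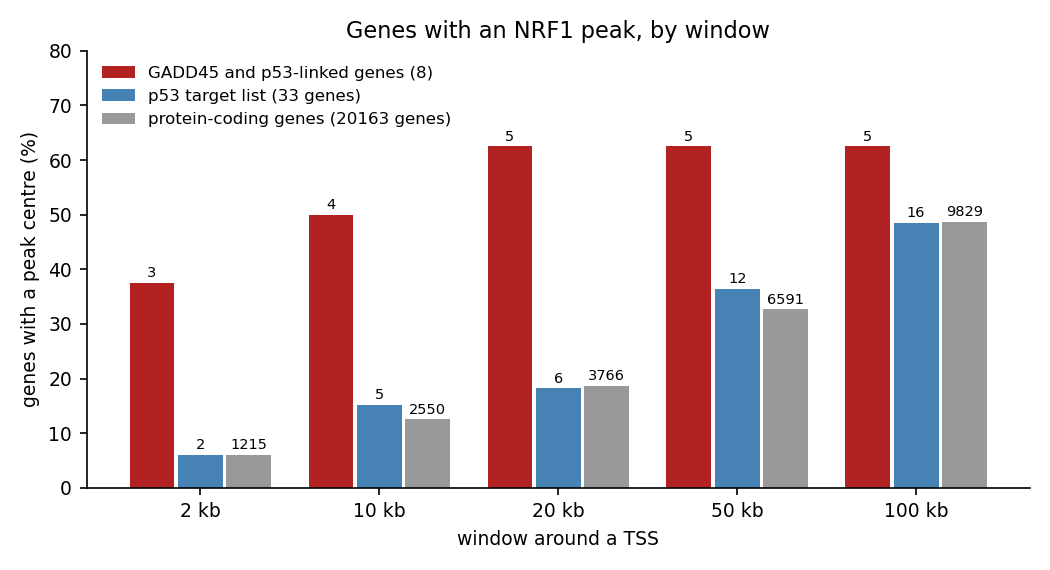
Share of genes with a peak centre within 2, 10, 20, 50 or 100 kb of a TSS (%, y axis), with the number of genes above each bar. The 8 genes (red) reach 5 at 20 kb and stay there, while the 33 p53 targets (blue) reach 36.4% at 50 kb beside 32.7% of all 20163 protein-coding genes (grey).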

How the data were processed

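The authors immunoprecipitated NRF1 from MG132-treated HCT116 cells, sequenced single-end reads, mapped them to hg19 and called peaks. The submitters' processing notes name bcl2fastq, CASAVA 1.8.2, Bowtie2 2.2.6 and MACS 1.4.2. Settings, duplicate removal and the control are not given in the sources used here, and the input was not analysed. The deposited score per peak is the negative log10 of the MACS p-value multiplied by 10 (a score of 50.00 is 1e-05), and it ranks peaks within 1 library. Depth is unknown, and a list of peaks does not allow the cell line to be checked against its markers.

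TSSs, exons and genes came from GENCODE 44 on GRCh37 (hg19). Motifs were searched in 5673 peaks, after 5 on contigs and 5 with undetermined bases were left out. Distances were taken from the peak centre, and ranks from the score. The scripts were tested on simulated data. Python 3.11.15, numpy 2.4.6, scipy 1.17.1, pysam 0.24.0 and matplotlib 3.10.9 were used. Without replicates, no test was run. The members and lists were chosen with earlier results of these data known. The genes named were all 8 members, the genes nearest to their peaks, and of the other lists the 10 genes with the highest scores among those with a peak, of which 1 is not reported here. Alternatives were a score of at least 100, windows of 2, 10 and 50 kb, the nearest edge, other sets of TSSs, intervals within 500 bp merged, the central 200 bp, a looser ARE and, added after the data were seen, looser p53 elements.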

Additional observations from a re-analysis of the deposited data

How the results depend on the processing

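With a score of at least 100, 3 of the 8 genes kept a peak (GADD45B, GADD45G and PMAIP1), with 4 peaks that all held the longer ARE, 4 p53 targets had a peak, the share of protein-coding genes was 9.45% and the median score of the peaks of the genes was 195.14. A window of 2 kb left 3 genes (GADD45A, GADD45G and BBC3) with 3 peaks, of which 3 held an ARE and 3 the longer ARE, with a median score of 67.3, beside 6.03% of protein-coding genes and 2 p53 targets. A window of 10 kb left 4 genes (without PMAIP1) with 4 peaks that all held the longer ARE, 5 p53 targets, 12.6% and a median score of 117.96, and a window of 50 kb gave 32.7% and 12 p53 targets. The share was 15.7% with TSSs of protein-coding transcripts and 13.03% with 1 TSS per gene. Merging intervals within 500 bp joined the PMAIP1 peaks, leaving 5 peaks with a median of 168.61. The nearest edge in place of the centre gave 18.81% of protein-coding genes. The other counts under these settings equalled those reported. A p53 element was present in 0 of the peaks of the genes with the full consensus, in 1 with up to 1 base off and in 2 with up to 2 bases off. The 6 longer AREs were also found in the central 200 bp. GADD45G had a peak under each of these settings. No paired analysis was possible because there is 1 ChIP library. The list was called by the authors on that library, so that an overlap between peak sets could not be varied, and the unknown depth limits any statement on genes without a peak.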
